A study of Homo sapiens with 13 samples.

Results

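The comparison described here is between 12 h and 4 h of tamoxifen in MCF10A-Src cells, a derivative of the immortalised human breast epithelial line MCF10A whose introduced Src kinase becomes active when tamoxifen is added. MCF10A cells are themselves not tumorigenic, although the labels give breast cancer as the cell type. The 12 h group had 1 polyA RNA-seq library and the 4 h group 2. Libraries at 0 h (1) and 36 h (2) of the same time course entered the fit and are quoted for context. All 6 libraries came from cells that carry the Src construct, and no library of cells kept without tamoxifen for 4 or 12 h was analysed here, so the effect of Src activation and that of time in culture cannot be told apart. Genes were taken where the deposited FPKM (fragments scaled to transcript length and library depth) was 1 or more in any of the 3 libraries at 4 h and 12 h. This gave 14562 of 38369 gene rows, 11277 of them coding genes and 3285 assembled long intergenic RNAs (lincRNAs). The gene row just inside that limit was linc-IREB2-AS, with a highest FPKM of 1.00054, and the one just outside was linc-ZMPSTE24-AS, with 0.999012.

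Src is a membrane-bound tyrosine kinase that phosphorylates focal adhesion, junction and adaptor proteins and signals through STAT3, PI3K and ERK. In MCF10A-Src cells, its activation is known to start an inflammatory circuit of NF-kB, interleukin-6 and STAT3, after which the cells lose epithelial shape and grow as transformed cells. Early in such a response immediate early genes are induced, and cytokine, protease, junction and metabolic genes change later.

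Depths at 4 h were 18.5 and 23.3 M fragments, the 12 h library had 26.6 M, and the 0 h and 36 h libraries 12.6 to 52.3 M. The 4 h libraries differed from each other by more than counting noise, with a median chi-square ratio of 15.1. Among 13554 genes with 1 CPM or more (CPM, fragments scaled to library depth) in each of the 3 libraries, the median absolute log2 difference was 0.26 between the 12 h library and 4 h replicate 1, and 0.35 between it and 4 h replicate 2, against 0.24 within the 4 h pair. The number of these genes that differed at least 2-fold was 881 and 1255 across the times and 470 within the 4 h pair. The defining basal epithelial markers were abundant, with KRT5 at 4867 CPM at 12 h and 5914 and 5892 CPM at 4 h, and 10 of 10 basal markers passed FPKM 1. Of the 12 luminal and milk markers 7 passed it, and LALBA, CSN2 and CSN3 had 0 fragments in the 3 libraries. The ESR1 row held 761 CPM at 12 h and 678 and 290 CPM at 4 h. The construct of this line is known to use the ligand-binding domain of the estrogen receptor, so reads of the transgene and of the endogenous gene cannot be told apart in that row. Of 16 immune and blood markers 2 were tested (CD14 and CD68), of 9 fibroblast markers 3, and of 7 endothelial markers none. The immune and blood markers CD3E, MS4A1, HBB, NKG7 and AIF1, the fibroblast collagen COL1A2 and the endothelial cadherin CDH5 had 0 fragments. Other members were detected. The fibroblast gene DCN had 1682 fragments at 12 h (704 and 971 at 4 h), the row FIP1L1,PDGFRA 1190 (866 and 1149) and FAP 876 (481 and 644). Below FPKM 1, the endothelial genes KDR and TEK had 77 (25 and 39) and 59 (12 and 16). The summed level of the immune list was 30.4 CPM at 12 h and 25 and 22.1 CPM at 4 h.

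Between 4 h and 12 h a small share of the tested genes passed the test for a change, and some of the changes were large. With 1 library at 12 h, a gene that did not pass may still have changed. Genes with more RNA at 12 h included the interleukins IL33 and IL24, the metalloproteases ADAM19, ADAMTS4 and ADAMTS9, and the calprotectin subunits S100A8 and S100A9. Those with less RNA included the tight junction genes CLDN1, CLDN4, OCLN and TJP3, the matricellular THBS1, and the YAP/TAZ targets F3, ANKRD1 and AMOTL2. By edgeR's quasi-likelihood test with Benjamini-Hochberg adjustment over all 15572 genes tested, 407 of 14530 tested genes with FPKM of 1 or more were higher at 12 h (2.8%) and 254 lower (1.75%), 4.55% in all. Over all genes tested, those below the FPKM limit at both times included, the shares were 2.96% higher and 1.64% lower, 4.6% in all. At least a 2-fold change was seen in 343 of the higher and 220 of the lower ones. An unadjusted edgeR p under 0.05 was seen in 2886 of the 14530. The median log2 fold change was 1.45 among the higher, -1.41 among the lower and -0.03 over all 14530 genes. The 12 h library lay above both 4 h libraries for 4900 genes (33.7%) and below both for 5637 (38.8%), and over all genes tested the shares were 34.9% and 37.3%. A further 32 gene rows were not tested because the authors' quantification had not given a status of OK. Of the higher genes 118 passed FPKM 1 only at 12 h, and of the lower ones 56 passed it only at 4 h.

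These counts carry the limits of 1 library at 12 h, whose spread the fit takes from the pairs at 4 h and 36 h. With 4 h replicate 1 left out, 1740 genes were higher and 1203 lower. With 4 h replicate 2 left out it was 855 and 592. In both cases the spread came from the 36 h pair alone. Scaling by library totals gave 345 higher and 135 lower, a split more weighted to rises, and ended the calls of 26 named genes, among them the ligands CLCF1, NRG1 and CCL2, DNAJB9, IFIT1, IRF7, NR1D2, SQSTM1, TRAPPC6A and BLNK. By limma on log2(FPKM + 1) 29 were higher and 12 lower, and 91 of the 109 called genes named by rule missed the threshold there, though none changed direction. Leaving out either 4 h library raised the number of calls, so those runs are no check on a named call.

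**Figure D1:**
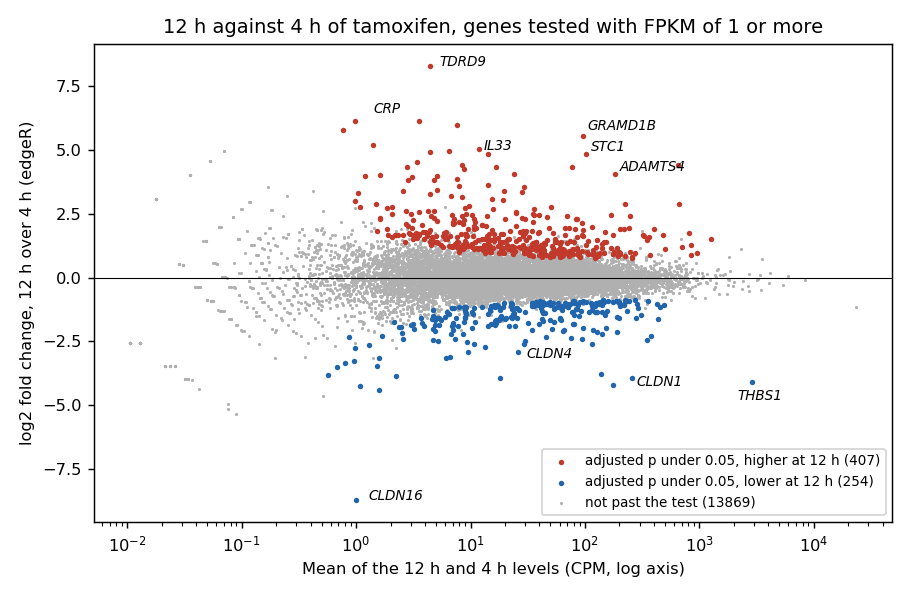
Each point is 1 of 14530 tested genes, with the mean of its 12 h and 4 h levels on the x axis (CPM, log axis) and the edgeR log2 fold change of 12 h over 4 h on the y axis. The 407 higher genes are red and the 254 lower genes blue, and THBS1 and CLDN1 are far below the line at high levels while GRAMD1B, STC1 and ADAMTS4 are far above it.

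LINC00520, the lincRNA after which the study is named, was taken to be the row linc-TBPL2-2 (XLOC_004884) because both lie between KTN1 and PELI2, and no file pairs the names. The row spans chromosome 14 from 56243909 to 56263392 in hg19. It held 14.7 CPM at 12 h (415 fragments), against 1.56 and 0.93 CPM at 4 h. The 12 h library stood well above both 4 h libraries, at 11.9-fold their level (log2 3.58, SE 0.29, edgeR adjusted p = 0.000899). In deposited FPKM, which Cuffdiff also adjusts for transcript length, the row had 3.79 at 12 h and 0.147 and 0.119 at 4 h, 28.5-fold higher. Among 110 named genes with both ratios, the FPKM ratio and the CPM ratio were apart by over 1.5 times in 5 and opposite in direction in none that was called: beside LINC00520 and linc-TLL1-1 these were CYTH4 (34.8-fold higher in FPKM and 63.7-fold in CPM), EPHB6 (9.36-fold and 14.8-fold lower) and KRT10 (1.88-fold and 3.12-fold lower). This comparison was added after the values were seen. Over the time course the level of LINC00520 was 1.59 CPM at 0 h, 1.56 and 0.93 at 4 h, 14.7 at 12 h, and 162 and 202 at 36 h, so the 4 h libraries were at or below the 0 h level. SRC itself, whose row could also hold reads of a Src transgene, had 24.0 CPM at 12 h and 29.0 and 19.9 CPM at 4 h. The 12 h value lay between the 4 h libraries (log2 -0.03, SE 0.28, edgeR adjusted p = 0.98). STAT3, the transcription factor downstream of interleukin-6, had 631 CPM at 12 h and 470 and 457 CPM at 4 h, outside the 4 h pair but not past the test (log2 0.44, SE 0.19, edgeR adjusted p = 0.238). Of 24 tested genes of the Src, STAT3 and PI3K pathway none was called by edgeR or DESeq2, and 1 had an unadjusted p under 0.05. Their median log2 fold change was 0.03.

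The gene with the largest fitted rise among those with more than 3 fragments in each group was CRP, the acute-phase pentraxin best known from liver (chromosome 1, 159682080 to 159684379, hg19). CRP had 6.93 CPM at 12 h and 0.10 and 0.08 CPM at 4 h, 70.6-fold higher (log2 6.14, SE 0.47, edgeR adjusted p = 0.000616). By the authors' deposited calls it was not significant (Cuffdiff q = 0.126). CYTH4, an exchange factor for ARF GTPases, followed with 15.0 CPM against 0.26 and 0.21 (log2 5.98, SE 0.34, edgeR adjusted p = 0.000227). Both genes were near the detection limit in both 4 h libraries. They passed FPKM 1 only at 12 h, where the rule for naming rises required it. GRAMD1B, a sterol transfer protein of the endoplasmic reticulum (chromosome 11, 123396528 to 123493518), was already detected at 4 h. It had 189 CPM at 12 h and 3.89 and 4.07 CPM at 4 h, a 47.2-fold difference (SE 0.20 on the log2 scale, edgeR adjusted p = 5e-05). STC1, the secreted glycoprotein stanniocalcin (chromosome 8, 23699360 to 23733414), had 198 CPM at 12 h and 7.21 and 6.45 CPM at 4 h (log2 4.86, SE 0.20, edgeR adjusted p = 6.8e-05). In both of these genes the 4 h libraries lay close together and the 12 h library was over an order of magnitude above them.

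Other genes in this group were receptors, enzymes and GTPase regulators. IL33, the nuclear alarmin cytokine of the IL-1 family, had 23.0 CPM at 12 h and 0.62 and 0.76 CPM at 4 h (log2 5.04, SE 0.25, edgeR adjusted p = 0.000166). CALCRL, the receptor for adrenomedullin and CGRP, had 8.66 CPM against 0.16 and 0.38, and its log2 fold change of 4.94 became 5.79 without 4 h replicate 2. The liprin PPFIA4, an ectonucleotidase (ENTPD3) and a transmembrane serine protease (TMPRSS4) rose by 4.95, 4.53 and 4.42 on the log2 scale. RHOU, a small GTPase, had 32.0 CPM at 12 h and 1.45 and 1.70 CPM at 4 h (log2 4.33, SE 0.24). The metalloproteases ADAM19 and ADAMTS4, a membrane sheddase and an aggrecanase, closed the list of the 12 largest. ADAM19 had 147 CPM at 12 h and 8.04 and 6.66 CPM at 4 h, and ADAMTS4 344 CPM at 12 h and 19.5 and 21.8 CPM at 4 h, 20.1-fold and 16.7-fold higher (edgeR adjusted p = 0.000113 and 0.000227). All 12 had a 12 h level clear of both 4 h libraries, as the rule for naming them required.

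**Figure D2:**
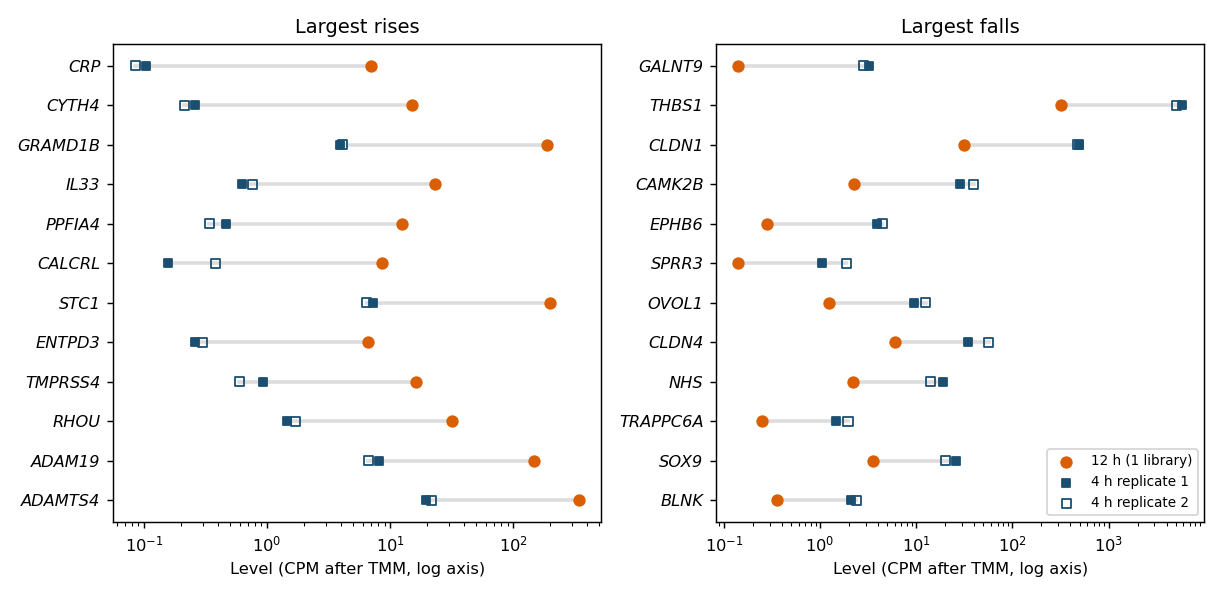
Levels of the 12 coding genes with the largest rises and the 12 with the largest falls, 1 gene per line, in CPM after TMM scaling on a log axis. The single 12 h library (circle) lies outside both 4 h libraries (squares) in every line, as the rule for naming these genes required. The gap is widest for CRP among rises and GALNT9 among falls.

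A few genes had next to no fragments at 4 h, so their ratio is given with an exact 95% interval for counting error. TDRD9, a germline RNA helicase, had 249 fragments at 12 h against 0 and 1 at 4 h, a ratio of 377 (interval 67.1 to 14953). ECSCR, an endothelial surface protein, had 55 against 0 and 1 (ratio 83.3, interval 14.3 to 3349), and GZMB, the cytotoxic protease granzyme B, 43 against 1 and 0 (65.1, interval 11.1 to 2631). EEF1A2, the tissue-restricted elongation factor, had 77 against 2 and 1 (38.9, interval 12.8 to 193), and it has a close and abundant paralog, EEF1A1, so its count is uncertain. All 4 went on to higher levels at 36 h, where TDRD9 held 92.1 and 84.6 CPM and GZMB 38.5 and 50.5 CPM. Their fitted log2 fold changes rested on single fragments: that of TDRD9 was 7.55 without 4 h replicate 1 and 10.91 without replicate 2, that of ECSCR 5.38 and 8.74, that of GZMB 8.42 and 4.78, and that of EEF1A2 5.86 without replicate 1. GZMB is otherwise known from lymphocytes and ECSCR from endothelium. The summed level of the endothelial markers was 5.4 CPM at 12 h and 2.8 and 3.2 CPM at 4 h, and the part of such cells in these values was not tested.

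Among the genes that fell was THBS1, the secreted matricellular protein thrombospondin-1, an activator of latent TGF-beta (chromosome 15, 39872228 to 39891516, hg19). It had 323 CPM at 12 h and 5831 and 5035 CPM at 4 h, 16.8-fold lower (log2 -4.07, SE 0.26, edgeR adjusted p = 0.000272). Over the course it went through 993 CPM at 0 h, 5831 and 5035 at 4 h, 323 at 12 h, and 690 and 620 at 36 h. GALNT9, which starts O-glycosylation, had 0.14 CPM at 12 h and 3.27 and 2.84 CPM at 4 h (log2 -4.39, SE 0.67, edgeR adjusted p = 0.0128). CAMK2B, a calmodulin-dependent kinase, had 2.26 CPM at 12 h and 28.8 and 39.4 CPM at 4 h (log2 -3.91, SE 0.33, edgeR adjusted p = 9e-04), and EPHB6, a kinase-dead ephrin receptor, 0.28 CPM against 3.89 and 4.46 (log2 -3.86). NHS, a regulator of actin and lamellipodia, fell by 2.92 on the log2 scale and SOX9, a transcription factor of epithelial progenitors, by 2.70. TRAPPC6A, of vesicle tethering, and BLNK, a signalling adaptor best known from B cells, fell by 2.77 and 2.64 but had under 3 CPM in every one of the 3 libraries, and neither passed DESeq2. CLDN16, a claudin, had 0 fragments at 12 h and 38 and 47 at 4 h, at least 18.7-fold lower with 3 fragments as the floor at 12 h. The phosphatase PTP4A3 had 2 fragments against 19 and 27, lower by a ratio of 15.2 (95% interval 3.97 to 129, counting error only), and was not past DESeq2.

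Of 28 tested genes of epithelial junctions and the factors that control them, 8 fell by 12 h. Claudins and occludin form the strands of tight junctions, the TJP proteins anchor them to actin, desmogleins hold desmosomes together, and GRHL and OVOL factors drive epithelial genes. Of the 28, 24 lay below both 4 h libraries (38.8% of all genes did), and the median log2 fold change was -0.58. The claudin CLDN1 (chromosome 3, 190015472 to 190088789) had 31.5 CPM at 12 h and 491 and 481 CPM at 4 h (log2 -3.95, SE 0.24, edgeR adjusted p = 0.000234). CLDN4 had 5.97 CPM at 12 h and 34.6 and 56.6 CPM at 4 h (log2 -2.93, SE 0.37, edgeR adjusted p = 0.00637), and OCLN 24.5 CPM against 92.0 and 119 (log2 -2.10, SE 0.25, edgeR adjusted p = 0.0048). By the authors' deposited calls CLDN4 was not significant (Cuffdiff q = 0.552), while CLDN1 and OCLN were (Cuffdiff q = 0.000829 for each). In each of these the 12 h library was well below the lower of the 4 h pair. The scaffold TJP3 fell by 2.20 and its relative TJP1 (ZO-1) by 0.95. The factors OVOL1 and GRHL3 fell by 3.16 and 2.49. OVOL1 had 1.24 CPM at 12 h and 9.55 and 12.6 CPM at 4 h, and GRHL3 9.01 CPM against 55.9 and 45.5. The desmosomal cadherin DSG3 fell by 1.08. E-cadherin (CDH1), with 120 CPM at 12 h and 213 and 177 CPM at 4 h, lay below the pair and did not pass the test (log2 -0.70, SE 0.20, edgeR adjusted p = 0.103). In DESeq2 9 of the 28 were lower, and with library totals 7.

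In several of these junction genes both 4 h libraries stood above the single 0 h library, a difference given here without a test. CLDN1 was at 71.8 CPM at 0 h, 491 and 481 at 4 h, 31.5 at 12 h, and 10.2 and 12.3 at 36 h. CLDN4 was at 7.87 CPM at 0 h, 34.6 and 56.6 at 4 h, 5.97 at 12 h, and 4.54 and 3.51 at 36 h. OCLN had 39.3 CPM at 0 h, 92.0 and 119 at 4 h, 24.5 at 12 h, and 26.1 and 23.2 at 36 h. In each of the 3 genes the 12 h level was below the single 0 h library as well as below the 4 h pair.

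Keratins form the intermediate filaments of epithelia, and the cornified envelope is the crosslinked protein shell of the outermost cells of stratified ones. Of 16 tested keratins 4 fell and 1 rose, with a median of -0.66. KRT16, a keratin of activated keratinocytes, had 97.3 CPM at 12 h and 261 and 308 CPM at 4 h (log2 -1.55, SE 0.21, edgeR adjusted p = 0.00766). KRT15 and KRT80 fell by 1.68 and 1.59, and the luminal keratin KRT8 by 0.86. KRT8 missed the threshold without 36 h replicate 1 or 2 (edgeR adjusted p = 0.0659 and 0.0664). KRT6C rose by 1.39 to 3.89 CPM, against 1.66 and 1.32 CPM at 4 h. It lies beside the near-identical KRT6A and KRT6B, so fragments could have been split among the 3 genes. KRT6A had 4384 CPM at 12 h and 2693 and 2624 CPM at 4 h and was not past the test (log2 0.72, edgeR adjusted p = 0.109). Of the 12 cornified envelope and kallikrein genes tested 3 fell, with a median of -0.99. SPRR3, a small proline-rich envelope protein with under 2 CPM throughout, fell by 3.33 but not past DESeq2, the crosslinking enzyme TGM1 fell by 0.92, and KRT10, of differentiated layers, by 1.64. With library totals only KRT16 of the keratins and KRT10 of the envelope list passed.

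YAP and TAZ are co-activators that carry signals of cell density, adhesion and actin tension to TEAD transcription factors. Of 15 tested genes of this pathway 5 fell, 12 lay below both 4 h libraries (38.8% of all genes did), and the median log2 fold change was -0.67. ANKRD1, a cardiac-type ankyrin repeat protein and a common YAP reporter, had 3.08 CPM at 12 h and 12.5 and 15.9 CPM at 4 h (log2 -2.21, SE 0.36, edgeR adjusted p = 0.0178). F3, tissue factor, which starts the extrinsic clotting pathway, had 25.2 CPM at 12 h and 109 and 102 CPM at 4 h (log2 -2.07, SE 0.21, edgeR adjusted p = 0.0026). Both 12 h values were under the lower of the 4 h libraries by a wide margin. The LIM protein JUB (now AJUBA) and the angiomotin AMOTL2, both regulators within the pathway, fell by 2.03 and 1.29, and the receptor kinase AXL by 0.97. The matrix-associated targets CTGF and CYR61 had log2 fold changes of -1.51 (edgeR adjusted p = 0.0517) and -1.07 (edgeR adjusted p = 0.146), CTGF with 5.62 CPM at 12 h and 19.4 and 12.6 CPM at 4 h. The co-activators themselves were not called. YAP1 had 279 CPM at 12 h and 304 and 294 CPM at 4 h, and WWTR1 (TAZ) 25.8 CPM at 12 h and 33.2 and 20.3 CPM at 4 h.

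Of 16 tested TGF-beta and BMP signalling genes 3 fell, with a median of -0.26. ID3, an inhibitor of helix-loop-helix factors, fell by 1.36, PMEPA1, a feedback inhibitor of SMAD signalling, by 1.5, and INHBA, the activin A subunit, by 1.2. INHBA had 4.31 CPM at 12 h and 8.98 and 10.8 CPM at 4 h, and 101 and 88.0 CPM at 36 h. With library totals only ID3 remained past the test. Of the 8 tested genes of the epithelial-mesenchymal transition none was called by edgeR or DESeq2, and 2 had an unadjusted p under 0.05. SNAI1 had 4.06 CPM at 12 h and 2.23 and 1.61 CPM at 4 h (log2 1.09, edgeR adjusted p = 0.135), and vimentin (VIM) 244 CPM against 246 and 268.

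Promoters of 5 of the genes described, 4 that fell and 1 that rose, are printed because letters matching a known factor's motif were found in them. They were picked after the motif search and stand as examples. Each is the stretch of 250 bases before the RefSeq gene start (GRCh38.p14, strand of the gene), and capitals mark matches to TGANTCA (AP-1), GGAATG (TEAD), TTTNGCGC (E2F) or TTCNNNGAA (STAT), searched on both strands. THBS1 (chr15:39580829-39581078, plus strand) held 1 STAT and 1 TEAD match, CLDN4 (chr7:73830746-73830995, plus strand) 2 AP-1 matches, ANKRD1 (chr10:90921088-90921337, minus strand) 1 AP-1 and 2 TEAD matches, F3 (chr1:94541760-94542009, minus strand) 2 AP-1 matches, and E2F2 (chr1:23531234-23531483, minus strand) 2 overlapping E2F matches.
THBS1: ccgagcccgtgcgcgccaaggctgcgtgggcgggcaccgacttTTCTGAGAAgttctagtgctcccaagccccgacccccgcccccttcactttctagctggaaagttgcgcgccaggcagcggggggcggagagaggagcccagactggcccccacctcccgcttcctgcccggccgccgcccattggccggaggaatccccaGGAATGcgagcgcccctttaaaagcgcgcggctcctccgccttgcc
CLDN4: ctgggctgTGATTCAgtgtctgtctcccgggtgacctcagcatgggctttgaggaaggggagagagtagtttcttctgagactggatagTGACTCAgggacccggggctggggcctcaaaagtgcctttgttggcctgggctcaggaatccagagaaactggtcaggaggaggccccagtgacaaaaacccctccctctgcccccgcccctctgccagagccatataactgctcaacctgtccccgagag
ANKRD1: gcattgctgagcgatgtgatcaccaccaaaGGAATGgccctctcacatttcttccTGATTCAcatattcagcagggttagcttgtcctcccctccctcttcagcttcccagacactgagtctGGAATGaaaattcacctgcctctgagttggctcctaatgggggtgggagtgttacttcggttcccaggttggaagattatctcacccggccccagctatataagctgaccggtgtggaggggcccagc
F3: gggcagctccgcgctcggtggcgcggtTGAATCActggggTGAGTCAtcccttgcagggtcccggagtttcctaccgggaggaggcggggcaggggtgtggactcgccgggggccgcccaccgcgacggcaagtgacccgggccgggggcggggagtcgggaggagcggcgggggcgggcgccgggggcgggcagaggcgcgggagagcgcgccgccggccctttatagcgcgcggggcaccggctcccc
E2F2: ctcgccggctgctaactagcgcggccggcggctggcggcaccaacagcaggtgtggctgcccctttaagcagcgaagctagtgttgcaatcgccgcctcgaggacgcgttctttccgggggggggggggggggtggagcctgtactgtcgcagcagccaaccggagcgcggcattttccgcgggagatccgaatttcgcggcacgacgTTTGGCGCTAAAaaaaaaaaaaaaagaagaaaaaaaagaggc
Among all 27305 promoters of the table the letters of AP-1 were found in 6.6%, of TEAD in 11.9%, of E2F in 1.54% and of STAT in 6.78%. Letters of HIF (ACGTG) and FOXO (TGTTTAC) were searched as well and were found in 18.7% and 2.98%. Of the 102 named coding genes 66 had a promoter in the table, and no share over them is given. TEAD letters were found in named genes that fell (THBS1, ANKRD1, SPRR3 and IFIT1) and in named genes that rose (CCL20, ITGA5, CENPE and HMMR). The YAP/TAZ genes F3 and AMOTL2 held no TEAD letters. AP-1 letters were found in CLDN4, ANKRD1, F3, SPRR3 and CLDN16, which fell, and in GZMB and ENO2, which rose. STAT letters were found in THBS1, CLDN16 and ID3, which fell, and in BCL6, which rose. A match is a description of the letters and not of binding.

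Matrix proteases and their inhibitors moved both ways. Of 20 tested genes 4 rose and 4 fell. Beside ADAM19, the rises were of ADAMTS9, an extracellular protease of proteoglycans, the protease nexin SERPINE2, and MMP14, the membrane-type collagenase of invading cells. ADAMTS9 had 143 CPM at 12 h and 30.2 and 27.7 CPM at 4 h (log2 2.31, SE 0.18, edgeR adjusted p = 0.000783). SERPINE2 had 144 CPM against 50.8 and 40.5, and MMP14 222 CPM against 91.4 and 76.1, log2 fold changes of 1.66 and 1.41. All were above both 4 h libraries by more than the difference within the pair. The falls were of the row SERPINB10,SERPINB2 (log2 -2.41), which holds the plasminogen activator inhibitor PAI-2, of tissue plasminogen activator (PLAT, -1.39), of the inhibitor TIMP3 (-1.59) and of the metalloprotease MMP28 (-1.59). The SERPINB10,SERPINB2 row had 30.2 CPM at 12 h and 126 and 194 CPM at 4 h. With library totals the counts were the same, 4 each way.

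Among 18 matrix proteins the only calls were THBS1, lower, and tenascin C (TNC), a matrix glycoprotein of wounds and tumour stroma, higher. TNC had 640 CPM at 12 h and 201 and 138 CPM at 4 h (log2 1.92, SE 0.28, edgeR adjusted p = 0.0114). Of 12 integrin subunits 2 rose. The row C17orf57,ITGB3, holding the beta chain of the vitronectin receptor, had 20.4 CPM at 12 h and 5.55 and 4.33 CPM at 4 h (log2 2.05, SE 0.23, edgeR adjusted p = 0.00372), and ITGA5, the fibronectin receptor chain, 169 CPM against 98.1 and 89.2 (log2 0.85, edgeR adjusted p = 0.0417). ITGA5 was not past the test with library totals. The lysosomal cysteine proteases CTSL1 and CTSB rose as well, 2 of 28 lysosomal and related genes tested. CTSL1 (cathepsin L) had 285 CPM at 12 h and 49.1 and 54.9 CPM at 4 h (log2 2.46, SE 0.19, edgeR adjusted p = 0.000605), and CTSB (cathepsin B) 1201 CPM against 509 and 471 (log2 1.29, edgeR adjusted p = 0.0159). The autophagy receptor SQSTM1, on the same list, fell by 0.88, a call lost without 36 h replicate 1 or 2 (edgeR adjusted p = 0.0576 and 0.0597). The median of the lysosomal list was -0.07.

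**Figure D3:**
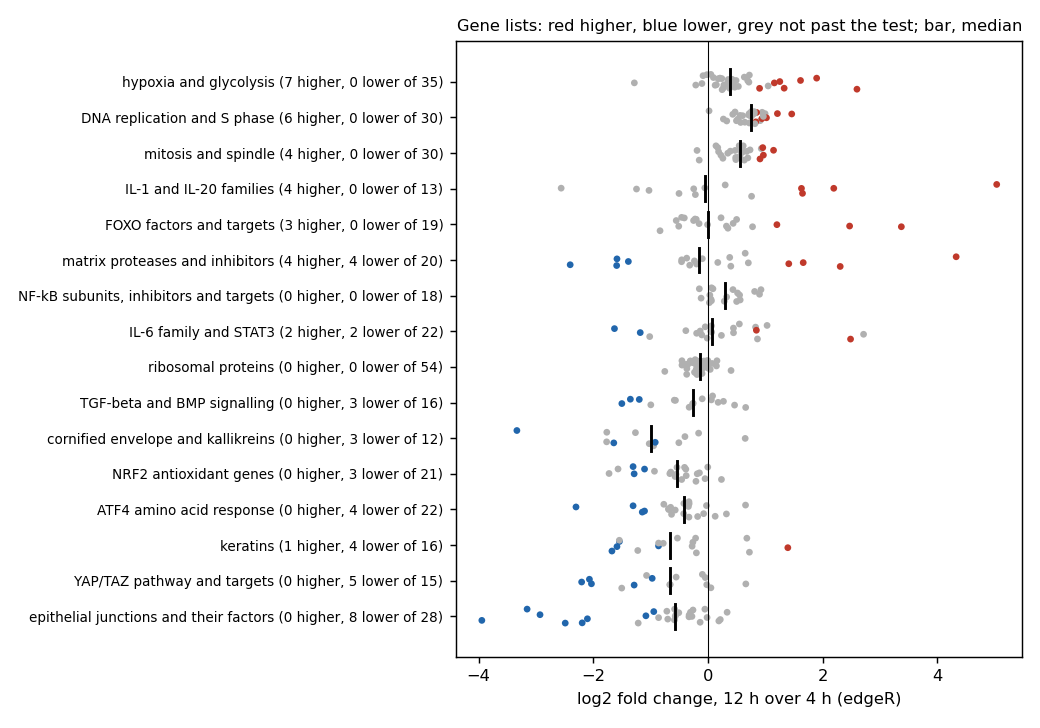
Log2 fold change of 12 h over 4 h for each tested gene of 16 gene lists, red where higher and blue where lower past the edgeR test, grey otherwise, with a black bar at the list's median. DNA replication genes all lie right of 0, while junction, YAP/TAZ and keratin genes lie mostly left of it with medians of -0.58, -0.67 and -0.66.

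Cytokines of the IL-1 and IL-20 families included 4 rises among 13 tested. IL33 is described above. IL24, an IL-20 family cytokine that signals to STAT3, had 491 CPM at 12 h and 165 and 152 CPM at 4 h (log2 1.63, SE 0.17, edgeR adjusted p = 0.00283). The decoy receptor IL1R2 had 13.1 CPM at 12 h and 2.49 and 3.22 CPM at 4 h (log2 2.19, SE 0.24, edgeR adjusted p = 0.00332). The row IL18R1,IL1RL1, which pools the receptors of IL-18 and IL-33, had 147 CPM against 46.6 and 47.2 (log2 1.65, SE 0.18, edgeR adjusted p = 0.00312). The 12 h library was above both 4 h libraries in all 4. IL1A and IL1B were not called, with log2 fold changes of -0.25 and -0.22, and the median of the 13 was -0.06.

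The interleukin-6 and STAT3 list had 2 rises and 2 falls among 22, with a median of 0.06. The acute-phase genes HP (haptoglobin) and SAA1 (serum amyloid A) rose. HP had 3.53 CPM at 12 h and 0.52 and 0.72 CPM at 4 h (log2 2.49, SE 0.33, edgeR adjusted p = 0.00766), and SAA1 249.9 CPM against 137 and 142 (log2 0.84, edgeR adjusted p = 0.0363). SAA1, which has a near copy in SAA2, was not past the test without 36 h replicate 2 (edgeR adjusted p = 0.0513). The ligands LIF and CLCF1 fell. LIF had 25.4 CPM at 12 h and 51.4 and 64.0 CPM at 4 h (log2 -1.18, edgeR adjusted p = 0.0354), and CLCF1 2.26 CPM against 7.57 and 6.49 (log2 -1.63, edgeR adjusted p = 0.036). IL6 itself was within the range of the 4 h pair, with 6.89 CPM at 12 h and 6.69 and 11.3 CPM at 4 h. The feedback inhibitor SOCS3 had 458 CPM at 12 h and 222 and 294 CPM at 4 h and was not past the test (log2 0.83, edgeR adjusted p = 0.0724). SOCS1, with 1.70 CPM against 0.16 and 0.34, was close to the threshold (log2 2.71, edgeR adjusted p = 0.0516).

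Of 10 chemokines 2 rose and 1 fell. CCL20, which attracts CCR6-bearing lymphocytes, had 59.8 CPM at 12 h and 20.9 and 30.3 CPM at 4 h (log2 1.22, edgeR adjusted p = 0.0389), and CXCL3, a neutrophil attractant with close paralogs, 6.68 CPM against 1.97 and 2.84 (log2 1.46, edgeR adjusted p = 0.033). The monocyte attractant CCL2 had 3.00 CPM at 12 h and 9.29 and 8.49 CPM at 4 h (log2 -1.56, edgeR adjusted p = 0.0491), a call that DESeq2 did not make. CXCL10 had 0.28 CPM against 1.82 and 3.22 (log2 -3.15, edgeR adjusted p = 0.0506). None of the 18 NF-kB subunits, inhibitors and targets was called by edgeR, against 2 by DESeq2, and 5 had an unadjusted p under 0.05. Their median was 0.30 and 16 of 18 had a positive log2 fold change. Among them BIRC3, an inhibitor of apoptosis, had 299 CPM at 12 h and 117 and 204 CPM at 4 h, and SOD2, the mitochondrial superoxide dismutase, 2311 CPM against 1116 and 1515 (edgeR adjusted p = 0.141 and 0.104).

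Of the 14 S100 proteins the calprotectin subunits S100A8 and S100A9 rose. S100A8 had 388 CPM at 12 h and 84.5 and 115 CPM at 4 h (log2 1.96, SE 0.23, edgeR adjusted p = 0.0048), and S100A9 1238 CPM against 346 and 401 (log2 1.73, SE 0.21, edgeR adjusted p = 0.00564). The median of the S100 list was -0.01. In prostaglandin synthesis, the inducible cyclooxygenase PTGS2 rose to 28.3 CPM, against 8.72 and 8.53 CPM at 4 h (log2 1.72, SE 0.22, edgeR adjusted p = 0.00622), and the prostaglandin E2 receptor PTGER4 fell to 1.87 CPM, against 7.63 and 8.19 (log2 -2.08, SE 0.31, edgeR adjusted p = 0.0122). The interferon list had 1 rise and 2 falls among 26, with a median of 0.01. The GTPase GBP1 had 29.6 CPM at 12 h and 85.9 and 103 CPM at 4 h (log2 -1.68, edgeR adjusted p = 0.00997) and the antiviral protein IFIT1 1.38 CPM against 4.51 and 5.18 (log2 -1.81). The interferon regulatory factor IRF7 rose by 1.18, a call lost in DESeq2 and without 36 h replicate 1 or 2 (edgeR adjusted p = 0.0647 and 0.0625).

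Of 30 tested genes of DNA replication and S phase 6 rose by 12 h. The MCM helicase and its loaders CDC6 and CDT1 license replication origins, CDC45 activates the helicase, RRM2 supplies deoxynucleotides, and E2F factors drive their transcription. The 12 h library lay above both 4 h libraries for all 30 (33.7% of all genes did), and the median log2 fold change was 0.75. E2F2 (chromosome 1, 23832922 to 23862552, hg19) had 22.2 CPM at 12 h and 8.15 and 8.02 CPM at 4 h (log2 1.46, SE 0.29, edgeR adjusted p = 0.0355), and CDC45 (CDC45L in the files) 55.2 CPM against 21.8 and 25.9 (log2 1.21, SE 0.21, edgeR adjusted p = 0.0234). RRM2 had 266 CPM at 12 h and 136 and 127 CPM at 4 h (log2 1.02, edgeR adjusted p = 0.0332). MCM5, MCM4 and CDC6 rose by 0.94, 0.85 and 0.83. The replication clamp PCNA, with 114 CPM against 73.7 and 91.3, was above the pair and not past the test (log2 0.47, edgeR adjusted p = 0.257). DESeq2 called 10 of the 30 higher. By limma on log2(FPKM + 1) no list, this one included, had 3 or more members called one way.

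Mitotic and spindle genes work after replication, in chromosome segregation. Of 30 tested genes 4 rose, 27 lay above both 4 h libraries (33.7% of all genes did) and the median was 0.55. HMMR, a spindle-associated hyaluronan receptor, had 72.6 CPM at 12 h and 27.4 and 38.4 CPM at 4 h (log2 1.14, edgeR adjusted p = 0.0371). The spindle checkpoint kinase TTK, the kinesin CENPE and the proliferation marker MKI67 rose by 0.96, 0.91 and 0.95. MKI67 had 358 CPM at 12 h and 201 and 169 CPM at 4 h and was not past the test with library totals. The 12 h levels of MCM5, CDC6, E2F2 and MKI67 (316 CPM at 0 h) were also above the single 0 h library, and those of CENPE, TTK and HMMR were not: HMMR had 74.2 CPM at 0 h, 27.4 and 38.4 at 4 h, 72.6 at 12 h, and 54.0 and 61.0 at 36 h. Of 18 replication histone genes, whose RNAs mostly lack the polyA tail used for selection, none was called by edgeR and 1 by DESeq2, 6 had an unadjusted p under 0.05, and the median was 0.56. Among 11 cyclin D and CDK inhibitor genes the CDK inhibitor CDKN1C (p57) fell, with 2.76 CPM at 12 h and 10.8 and 21.0 CPM at 4 h (log2 -2.53, SE 0.49, edgeR adjusted p = 0.033). Its log2 fold change was -1.94 without 4 h replicate 2, and the call was lost with library totals.

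Hypoxia-responsive and glycolytic genes included 7 rises among 35 tested (2.8% of all genes rose), with a median of 0.37. Of the 35, 27 lay above both 4 h libraries (33.7% of all genes did). HIF1A, the oxygen-regulated transcription factor, had 1105 CPM at 12 h and 571 and 614 CPM at 4 h (log2 0.90, SE 0.18, edgeR adjusted p = 0.0365). Its targets ENO2, a glycolytic enolase, and EGLN3, a prolyl hydroxylase that marks HIF for degradation, rose by 2.60 and 1.89. ENO2 had 7.28 CPM at 12 h and 1.4 and 1.02 CPM at 4 h, and EGLN3 15.1 CPM against 3.32 and 4.75. The 12 h values were at least 3 times those of either 4 h library in both. PFKFB4 and PFKFB3, which make the activator of phosphofructokinase, rose by 1.61 and 1.16, the histone demethylase KDM3A by 1.25, and NDRG1, a stress-induced gene, by 1.33 (201 CPM at 12 h and 77.8 and 82.7 CPM at 4 h). Other members were not called: VEGFA had a log2 fold change of 0.63 (edgeR adjusted p = 0.138), the carbonic anhydrase CA9 0.69, the enzyme GAPDH -0.09 and the peptide hormone ADM -1.29 (edgeR adjusted p = 0.0771).

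FOXO transcription factors are held out of the nucleus by AKT and drive genes of quiescence and starvation. Of 19 tested factors and targets 3 rose. KLF9, a Krüppel-like repressor of growth that also responds to glucocorticoids, had 35.6 CPM at 12 h and 3.16 and 3.69 CPM at 4 h (log2 3.37, SE 0.21, edgeR adjusted p = 0.000259). CCNG2, an atypical cyclin of cell cycle arrest, had 67.8 CPM at 12 h and 12.7 and 11.8 CPM at 4 h (log2 2.47, SE 0.19, edgeR adjusted p = 0.000605). The repressor BCL6 had 58.1 CPM against 30.7 and 19.9 (log2 1.2, edgeR adjusted p = 0.0446), not past the test with library totals. The 4 h levels of KLF9 and CCNG2 were below those at 0 h: KLF9 was at 10.9 CPM at 0 h, 3.16 and 3.69 at 4 h, 35.6 at 12 h, and 93.7 and 107 at 36 h, and CCNG2 at 42.5 CPM at 0 h, 12.7 and 11.8 at 4 h, 67.8 at 12 h, and 242 and 275 at 36 h. The other 16 were not called, and the median of the 19 was -0.01.

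ATF4 answers amino acid shortage and NRF2 oxidative stress. Of 22 ATF4 genes 4 fell, with a median of -0.42 and 17 below both 4 h libraries (38.8% of all genes were). The cystine transporter SLC7A11, which is on both lists, had 53 CPM at 12 h and 109 and 154 CPM at 4 h (log2 -1.31, SE 0.26, edgeR adjusted p = 0.0354). The secreted STC2 had 41.7 CPM against 96.8 and 83.1 (log2 -1.11, SE 0.20, edgeR adjusted p = 0.0273). CHAC1, which breaks down glutathione, fell by 2.30 to 0.57 CPM but not past DESeq2, and NUPR1, a stress-induced chromatin protein, fell by 1.15, a call lost without 36 h replicate 1 or 2 (edgeR adjusted p = 0.0616 in each case). Of 21 NRF2 genes 3 fell, with a median of -0.54 and 18 below both 4 h libraries (against the same 38.8%). Beside SLC7A11 these were the thioredoxin reductase TXNRD1 (90.5 CPM at 12 h and 190.0 and 252 CPM at 4 h, log2 -1.29) and GCLC, of glutathione synthesis (72.9 CPM against 147 and 168, log2 -1.11). Scaled by library totals, TXNRD1 alone of the NRF2 genes, and STC2 and CHAC1 of the ATF4 genes, passed. The unfolded protein response had 1 fall among 21, DNAJB9 (log2 -1.18), and the p53 targets 1 among 22, PHLDA3, an inhibitor of AKT, which had 4.14 CPM at 12 h and 14.8 and 18.0 CPM at 4 h (log2 -1.99, SE 0.28, edgeR adjusted p = 0.00895).

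Ribosome biogenesis, the ribosome itself and the respiratory chain were followed with long gene lists. Of 30 ribosome biogenesis genes 1 fell, the row of PPAN, a call lost with library totals. The median was -0.35 and 26 lay below both 4 h libraries (38.8% of all genes did). MYC, which drives such genes, had 7.95 CPM at 12 h and 14.4 and 16.2 CPM at 4 h (log2 -0.95, SE 0.24, edgeR adjusted p = 0.0764). None of 54 ribosomal protein genes was called by edgeR or DESeq2, and none had an unadjusted p under 0.05. Their median was -0.14. Of 35 genes of oxidative phosphorylation none was called by edgeR or DESeq2, 1 had an unadjusted p under 0.05, and the median was -0.27. The same held for 30 proteasome subunits (0 by either tool or at an unadjusted p under 0.05, median 0.07) and 20 aminoacyl-tRNA synthetases (0 by either tool, 2 at an unadjusted p under 0.05, median -0.15).

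Immediate early genes respond to growth signals within the first hour or so, before the 4 h libraries were taken. Of 21 immediate early and AP-1 factors the AP-1 subunit FOSB rose and JUND fell. FOSB had 32.0 CPM at 12 h and 10.4 and 12.2 CPM at 4 h (log2 1.5, SE 0.25, edgeR adjusted p = 0.019), and JUND 14.1 CPM against 31.4 and 30.1 (log2 -1.13, SE 0.22, edgeR adjusted p = 0.0332), which was not past the test with library totals. FOSB was at 34.8 CPM at 0 h, 10.4 and 12.2 at 4 h, 32.0 at 12 h, and 13.8 and 9.87 at 36 h. FOS and EGR1 were above both 4 h libraries without passing the test (log2 0.73 and 1.17, edgeR adjusted p = 0.0682 and 0.0769). Of 17 ERK feedback genes none was called by edgeR, 1 by DESeq2, and 8 had an unadjusted p under 0.05. DUSP6, the ERK phosphatase, had 7.10 CPM at 12 h and 2.44 and 2.76 CPM at 4 h (log2 1.45, edgeR adjusted p = 0.0584), and DUSP2 a log2 fold change of -1.42. Of 10 EGF receptors and ligands the ligand NRG1 fell, with 2.44 CPM at 12 h and 7.94 and 6.37 CPM at 4 h (log2 -1.55, edgeR adjusted p = 0.0407), though not in DESeq2.

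**Figure D4:**
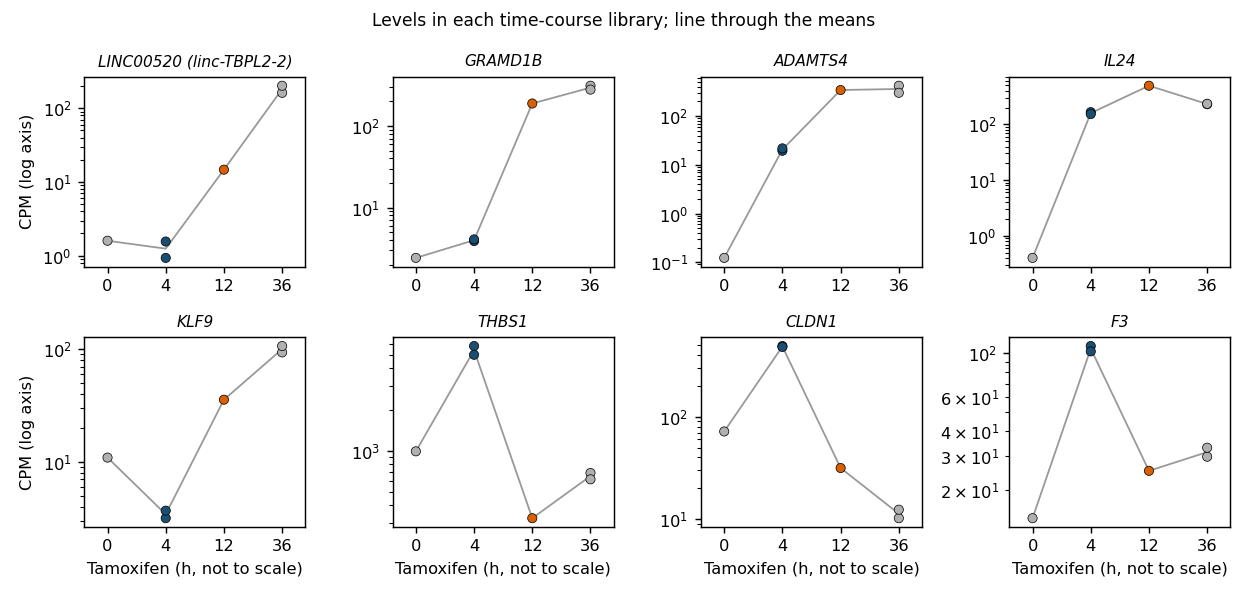
Levels of 8 genes in each library of the time course (CPM, log axis, hours of tamoxifen not to scale), with a line through the means and the 12 h library in orange. LINC00520, GRAMD1B and KLF9 continue upward to 36 h, ADAMTS4 is level between 12 and 36 h, IL24 is highest at 12 h, and THBS1, CLDN1 and F3 are highest at 4 h.

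LincRNA rows made up 96 of the higher and 47 of the lower calls, among 3274 tested. Of 11256 tested coding genes 311 were higher and 207 lower. Over all 14530 genes 2.8% were higher and 1.75% lower, and the lincRNA rows were called at rates close to these. Many of the called lincRNA rows lie on top of a coding gene. A tested coding row was overlapped by 69 of the 96 and 33 of the 47. In 34 and 18 of these the coding gene was called the same way. The overlap was not counted for lincRNA rows that were not called, so whether called rows overlap more often is not known. The strand setting is not given in the sources used here, so a row whose name ends in AS cannot be separated from the coding gene at its position. Several of the lincRNA rows with the largest changes have such a name. Row linc-STC1-AS, at the STC1 locus, had 1253 CPM at 12 h and 68.5 and 49.6 CPM at 4 h (log2 4.41), linc-ADAMTS4-AS 45.5 CPM against 2.44 and 3.06 (log2 4.04), linc-CLDN1-AS 18.2 CPM against 351 and 313 (log2 -4.19), linc-THBS1-AS 19.0 CPM against 241 and 275 (log2 -3.76), and linc-NHS-AS 0.25 CPM against 3.32 and 2.29 (log2 -3.47). Each moved in the direction of its coding partner. Rows with a place of their own were fewer. Beside LINC00520 there was linc-TLL1-1 (chromosome 4, 166605638 to 166719745), with 27.5 CPM at 12 h and 1.45 and 0.51 CPM at 4 h (log2 4.85, SE 0.40, edgeR adjusted p = 9e-04). Its log2 fold change was 5.74 without 4 h replicate 1. In deposited FPKM the row had 1.28 at 12 h and 0.038 and 0.278 at 4 h, 8.11-fold higher, with the 4 h libraries in the opposite order, and in the authors' deposited table it was not significant (q = 0.340). A neighbour of GRAMD1B, linc-GRAMD1B-1 (chromosome 11, 123325106 to 123330801) had 16.7 CPM at 12 h and 0.99 and 0.76 CPM at 4 h (log2 4.26, SE 0.27, edgeR adjusted p = 0.000259). Among falls, linc-FAM84B-1 (chromosome 8, 127883824 to 128044148) had 0.18 CPM against 1.5 and 1.95 (log2 -3.26, SE 0.56, edgeR adjusted p = 0.0211), while its level was 2.91 CPM at 0 h and 2.71 and 3.23 CPM at 36 h, so that the 12 h library alone was low.

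The remaining lists had at most 1 call each way. In sterol and fatty acid synthesis the desaturase FADS1 was the only call among 29 (log2 0.78, lost without 36 h replicate 1 or 2, with edgeR adjusted p = 0.0898 and 0.0895), and in the circadian clock the repressor NR1D2 among 12 (log2 -0.99, lost likewise with edgeR adjusted p = 0.062 and 0.0663). Of 9 estrogen receptor targets STC2 alone was called. Heat shock (15 genes), the BCL2 family (12) and metallothioneins (4) had 0 calls by edgeR, 2, 4 and 3 genes at an unadjusted p under 0.05, and 0, 1 and 1 calls by DESeq2. Of the 10 basal epithelial markers 0 were called by edgeR and 2 by DESeq2, with 4 at an unadjusted p under 0.05, and of the 7 luminal markers KRT8 was called. Among the 3 fibroblast and 2 immune markers tested there were 0 calls by edgeR or DESeq2, with 1 and 0 at an unadjusted p under 0.05; the fibroblast gene DCN had 59.5 CPM at 12 h and 36.5 and 41.2 CPM at 4 h (log2 0.61, edgeR adjusted p = 0.172).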

How the data were processed

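PolyA RNA of 6 MCF10A-Src time-course libraries was analysed. The submitters' processing notes name CASAVA 1.4, TopHat and Cuffdiff as tools and hg19 as the build, with no further versions. The annotation and the strand setting are not given in the sources used here. Per the file headers, the authors' table holds estimated counts of fragments per gene row and library, and FPKM that Cuffdiff scaled. A deposited calls table adds p-values, q-values and a log2 column, which was treated as a score whose sign alone counts. A further 2 columns of scaled fragments were not used. FPKM chose the genes.

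Estimated counts (99.5% to 99.9% whole within 0.001) were rounded. Genes with FPKM of 1 or more in any of the 6 libraries and status OK in all (15572) were fitted together with edgeR's quasi-likelihood test, TMM scaling and 1 coefficient per time point, and 12 h was contrasted with 4 h (2-sided). P-values were adjusted by Benjamini-Hochberg over all genes tested, with a threshold of 0.05. The spread of the 12 h library was taken from the pairs at 4 h and 36 h, which left 2 residual degrees of freedom and a common coefficient of variation of 0.162. SE is the size of the log2 fold change over the root of the F statistic. CPM is fragments scaled to library depth after TMM, not divided by length. The scripts were tested on simulated data, in which 23 of 60 2-fold changes (38.3%) and 73 of 73 4-fold changes (100%) at 12 h were called the right way. These shares were not split by gene level or spread, and recovery at low CPM was not tested separately. Intervals and floors cover counting error only. The labels do not say whether the replicates were separate cultures, and the p-values reflect a spread that may be technical.

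The gene row LINC00520 was found by gene order, between KTN1 and PELI2. Coordinates are 1-based hg19 loci from the files, and neighbouring genes can share a locus (KRT15 and KRT16 do). Promoter sequences are from RefSeq (GRCh38.p14). The genes, the 47 gene lists and the tests were chosen with earlier results of these data known, so the lists are described by counts and medians only. Named genes were LINC00520, SRC and STAT3, the 12 largest coding and 4 largest lincRNA changes each way among called genes, up to 6 each way with 3 or fewer fragments in a group, and in each list the called members of smallest p, at most 4; other list members named in the text were chosen after their values were seen. Alternatives were DESeq2, other scalings and filters, limma on log2(FPKM + 1 or 0.1), fewer libraries, the authors' calls and, added after seeing the data, the ratio of deposited FPKM. Models were run in R 4.3.3 with edgeR 4.0.16, DESeq2 1.42.0 and limma 3.58.1. Tables and figures were made in Python 3.11.15 with pandas 2.3.3, numpy 2.4.6, matplotlib 3.10.9 and scipy 1.17.1.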

Additional observations from a re-analysis of the deposited data

How the results depend on the processing

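No named call changed direction under any alternative run. Leaving out 1 library at 4 h or 36 h gave 484 to 1740 genes higher and 267 to 1203 lower, 437 to 883 and 244 to 434 of them at least 2-fold. Coding genes then ranged over 341 to 1072 higher and 217 to 1061 lower, lincRNA rows over 142 to 668 and 49 to 146, and lists with 3 or more members called one way over 15 to 29, against 13 in the analysis as reported. Without a 4 h library the lone 4 h sample is assumed to vary like the 36 h pair. Scaled by library totals, which moved the median of all genes from -0.02 to 0.03 (log2), 135 genes were lower (117 at least 2-fold, 111 coding, 24 lincRNA) and 7 lists kept 3 or more calls; 345 were higher. With limma on log2(FPKM + 1), 29 were higher and 12 lower (all at least 2-fold; 19 and 7 coding, 10 and 5 lincRNA), and with a pseudocount of 0.1, 36 and 8 (19 and 2 coding, 17 and 6 lincRNA), with 0 such lists in each. Without the FPKM filter 787 were higher and 598 lower (415 at least 2-fold; 544 and 484 coding, 243 and 114 lincRNA), with 22 lists. A fit of the 3 libraries at 4 h and 12 h alone called 169 lincRNA rows higher. The authors' deposited table called 670 genes lower (601 coding), 495 coding genes higher, and 22 lists. Where a construction does not show it, the cause was not tested. DESeq2 (521 higher, 330 lower), its size factors in edgeR (459 and 280) and a minimum of 10 fragments in 2 libraries (352 and 263) stayed within 1.5 times. Of 109 named calls, 8 were lost in DESeq2, 26 with library totals, 91 with limma under each pseudocount, 29 in the authors' table (where CLDN16 has an infinite log2 value), 8 in the fit of 3 libraries, 5 with the fragment minimum, and 6 or 7 without a 36 h library. Genes with few fragments at 4 h, such as TDRD9 and GZMB, are limited by depth. No paired analysis was possible because the 12 h group has 1 library and its label carries no replicate number.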

Other observations

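Outside the lists, ARNT2 and PLA2G4D were also higher at 12 h; they were chosen after their values were seen. ARNT2, a partner of basic helix-loop-helix PAS factors, had 15.0 CPM at 12 h and 2.02 and 1.4 CPM at 4 h (log2 3.14, SE 0.30, edgeR adjusted p = 0.00165). Its levels at 36 h were 4.88 and 4.84 CPM, so the 12 h library was the highest of the course. PLA2G4D, an epithelial cytosolic phospholipase A2, had 9.61 CPM at 12 h and 0.62 and 0.59 CPM at 4 h (log2 3.97, SE 0.38, edgeR adjusted p = 0.00165), and 7.49 and 4.84 CPM at 36 h. In the authors' deposited table the LINC00520 row was significant and higher at 12 h (q = 0.000829), and SRC and STAT3 were not significant there (q = 0.960 and 0.266). The 29 named calls not significant there included CRP, CLDN4, TDRD9, FOSB, KRT15, KRT16, CENPE, TXNRD1 and NDRG1.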
